A study of Oryctolagus cuniculus with 12 samples.

Results

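RLN1 is the rabbit gene for relaxin. It is 1 of the 1264 genes whose symbol could be matched to the array through RefSeq accessions, and 4 of the 43603 different probes belong to it. Its signal was followed across aortas with an ongoing coarctation, aortas in which the narrowing had been removed and aortas that had never been narrowed. The gene was chosen by its log2 signal on the arrays, which differed widely between rabbits of the same group and was followed by other named genes from rabbit to rabbit, so its spread and its likeness to other genes are given as descriptions without a test. The differences between groups were tested, although the gene was chosen with results of these data known, so the tests are not independent of that choice.

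All animals were male New Zealand white rabbits, and a ring of thoracic aorta about 4 mm long, taken between the coarctation site and the left subclavian artery, was harvested at 32 weeks of age. In the CoA group the aorta was narrowed at about 10 weeks of age with a permanent silk suture that set a pressure gradient of 20 mmHg, so the ring came from the stretch of aorta under raised pressure. In the Corrected group the same operation was done with a degradable Vicryl suture, which lost its hold over time so that the vessel reopened, though not to its full width. Control rabbits were not operated on, and the labels describe no sham operation, so surgery and coarctation cannot be told apart in a comparison with Control. Each group had 4 samples with 1 array each, taken as separate rabbits from the study's description. The comparisons did without Corrected replicate 3, which the study had excluded for its intensity distribution. This left 11 arrays.

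Relaxin is a peptide hormone of the insulin and relaxin family. It is best known as a hormone of pregnancy, when it is made by the ovary or the placenta, depending on the species, and loosens connective tissue. It acts through the receptor RXFP1, a G protein coupled receptor that raises cyclic AMP and nitric oxide. In arteries it is known to dilate the vessel, to increase compliance and to lower collagen deposition, in part through matrix metalloproteinases. In rabbit the same gene has also been described in airway epithelium that turns squamous. In the RefSeq gene table of the assembly mOryCun1.1, RLN1 lies on the same chromosome as its relatives INSL4 and INSL6, which stand 4 and 5 genes away on one side, while PLGRKT is the next gene on the other. The array was designed on an older build, so coordinates are not given. None of the 8 nearest entries on either side had a probe with a symbol.

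The arrays were of uneven quality, and Control replicates 3 and 4 resembled each other more than any other pair of the arrays used. Between 55.8% and 77.7% of the spots were well above background on the 11 arrays used, against 45.6% on Corrected replicate 3. Over 8463 of the brighter probes detected on all arrays, the SD (from the median absolute deviation) of the log2 difference between Control replicates 3 and 4 was 0.144, against 0.284 to 0.963 for the other pairs, and RLN1 differed between them by 0.48 on the log2 scale. The arrays fell into 4 scans, meaning arrays that share a scan time: all 4 CoA arrays were in scan 1, the other scans held no CoA array, and Corrected replicate 2 was scanned with Control replicates 1, 2 and 4. CoA and scan therefore cannot be told apart. All 5 smooth muscle genes with a named probe, ACTA2, MYH11, CALD1, DES and TPM2, were well above background on all 12 arrays.

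RLN1 signal spanned 10.44 log2 units over the 11 arrays, more than any difference between group means. The values below are quantile normalized log2 signals of probe 1, the RLN1 probe with the highest mean signal. In Control replicates 1 to 4 the RLN1 signal was 8.24, 9.21, 5.38 and 4.89. In CoA replicates 1 to 4 it was 15.33, 10.50, 7.14 and 11.81, and in Corrected replicates 1, 2 and 4 it was 5.96, 9.97 and 6.37. CoA replicate 1 stood highest, followed by CoA replicates 4 and 2, whereas CoA replicate 3 lay below Control replicates 1 and 2. Corrected replicate 2 lay above every Control array, while the other Corrected arrays lay between the lower and the higher pair of Control arrays. Corrected replicate 3, which was not used, had an RLN1 signal of 11.97.

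The range was as wide in the intensities before normalization, while the order of the arrays changed in part. The processed intensity of RLN1 probe 1 was 26.5 in Control replicate 4 and 37343 in CoA replicate 1, a 1408-fold range over the 11 arrays, against 1387-fold after normalization. On CoA replicates 2, 3 and 4 it was 713, 156 and 4343. On Control replicates 1, 2 and 3 it was 662, 775 and 58.7, and on Corrected replicates 1, 2 and 4 it was 115, 1719 and 63.8. Before normalization 2 of the 4 CoA arrays lay above the highest Control array and 2 of 4 above the highest Corrected array, against 3 of 4 in each case after it, since CoA replicate 2 had lain below Control replicate 2 and Corrected replicate 2. RLN1 probe 1 was well above background on all 12 arrays, so none of these values is a bound. Across the 11 arrays, RLN1 signal had a Pearson r of -0.22 with the share of spots well above background and of -0.20 with the log2 median signal of the array before normalization (Spearman's rho -0.35 and -0.13), values given as descriptions.

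The other RLN1 probes followed probe 1 closely, with small changes of order such as that of Control replicates 3 and 4, of which replicate 3 was the higher with probe 1 and the lower with probes 2, 3 and 4. Over the 11 arrays, probes 2, 3 and 4 had a Pearson r of 0.993, 0.996 and 0.988 with probe 1, and their signals spanned 1243-fold, 1555-fold and 645-fold. Probes 2 and 3 were detected on all 12 arrays. Probe 4 was detected on 7 of 12 arrays, in 2 of 4 Control, 3 of 4 CoA and 1 of the 3 Corrected arrays used, so it did not pass the filter of 8 arrays and its lower values are at the background.

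**Figure D1:**
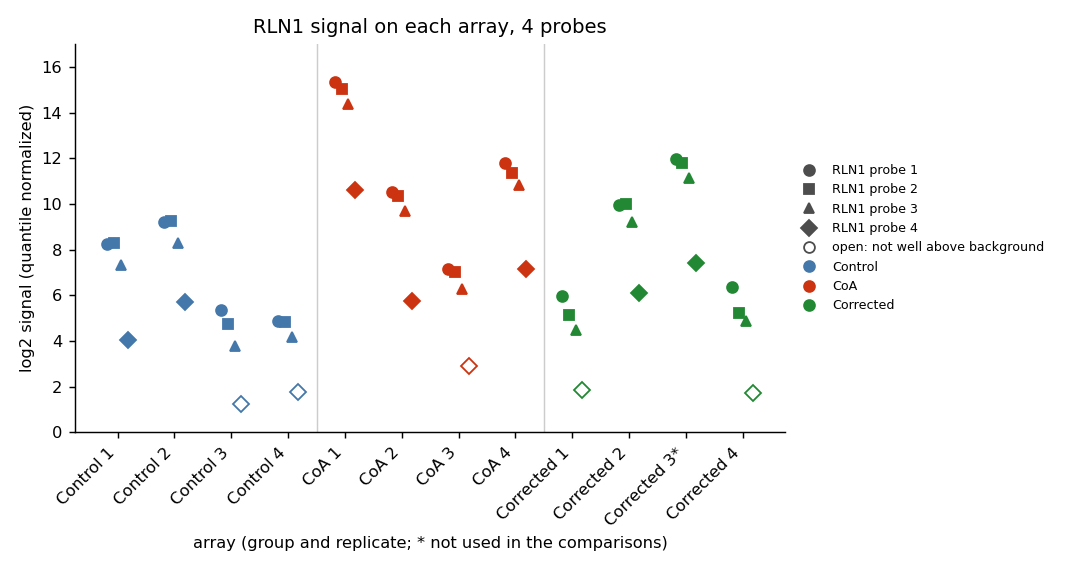
Quantile normalized log2 signal of the 4 RLN1 probes (y axis) on each of the 12 arrays (x axis, by group and replicate), with open symbols where a probe was not well above background. Probe 1 ran from 4.89 in Control replicate 4 to 15.33 in CoA replicate 1, and the 4 probes rise and fall together. The array marked with an asterisk was not used in the comparisons.

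The spread of RLN1 within groups was among the widest on the array. Pooled over the 3 groups, the SD of the log2 signal within groups was 2.68 for probe 1, against a median of 0.57 over the probes tested. Of 27240 probes with an SD, 45 had an SD at least as large as that of RLN1 probe 1, or 0.165%. For probes 2, 3 and 4 the SD was 2.84, 2.80 and 2.65. Among 953 named genes RLN1 ranked 7, with the muscle genes CKMT2, SRL, CKM and EEF1A2, the antimicrobial peptide gene CAMP and the anion exchanger gene SLC26A3 above it. The next genes below were S100A9 with an SD of 2.60, HIF1A with 2.13 and ALB with 2.11. The spread was widest in the CoA group, where the highest array was 293-fold above the lowest, against 19.9-fold in Control and 16.1-fold in Corrected. This rested on CoA replicate 1, without which CoA spanned 25.5-fold, and with the unused Corrected replicate 3 the Corrected group spanned 64.7-fold, both values computed after the data were seen. Whether the spread itself differed between groups was not tested.

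**Figure D2:**
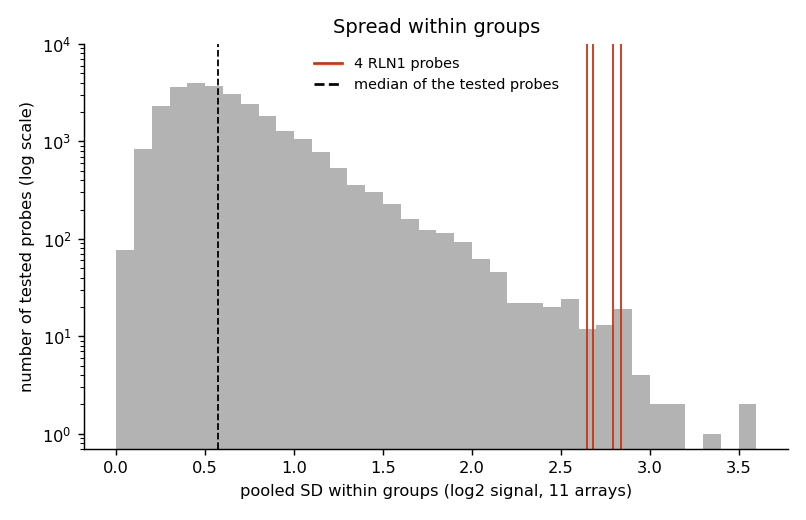
Number of probes (y axis, log scale) by the pooled SD of log2 signal within groups (x axis, 11 arrays). The dashed line marks the median of the tested probes, 0.57, and the red lines mark the 4 RLN1 probes, between 2.65 and 2.84, one of which did not pass the detection filter.

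The comparison of CoA vs Control asked whether RLN1 differed under ongoing coarctation. The mean log2 signal of RLN1 in CoA was 11.20 ± 3.39 (SD, n = 4). In Control it was 6.93 ± 2.12 (SD, n = 4). The difference was 4.27 on the log2 scale (SE 1.63, 95% interval 0.69 to 7.84), or 19.3-fold higher in CoA. Of the 4 CoA arrays, 3 lay above the highest Control array, and the groups overlapped through CoA replicate 3. The unadjusted limma p was 0.0235, and the p adjusted by Benjamini-Hochberg over 27283 probes was 0.303. With scan as a random block the difference was 3.80 (SE 1.26, limma adjusted p = 0.0957). This block cannot separate CoA from scan, since scan 1 held all 4 CoA arrays and no others. The exact permutation test of the arrays gave a two-sided p of 0.0857, where the smallest value this design allows is 0.0286. RLN1 therefore met a criterion of over 2-fold with an unadjusted p under 0.05, which the study also used, and did not pass adjustment. That criterion was met by 8.81% of all probes, 3.59% as higher and 5.22% as lower in CoA, and 0 probes passed adjustment in limma although 3877 had an unadjusted p under 0.05.

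Probes 2 and 3 gave differences of 4.15 and 4.39 for CoA vs Control, with limma adjusted p of 0.324 and 0.305. Probe 4, taken from the fit without the detection filter, gave 3.40 with an limma adjusted p of 0.377. The unadjusted criterion was no longer met by RLN1 probe 1 without Control replicate 3 (3.75), Control replicate 4 (3.59), CoA replicate 1 (2.89) or CoA replicate 4 (4.06), and with Control replicates 3 and 4 averaged as 1 sample the difference was 3.67, which also missed it.

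The comparison of Corrected vs Control asked whether a difference remained after the narrowing was removed. The mean log2 signal of RLN1 in Corrected was 7.43 ± 2.21 (SD, n = 3). It differed from Control by 0.50 (SE 1.76, 95% interval -3.36 to 4.37), with an limma adjusted p of 0.961 and an exact permutation p of 0.8286. The difference was well within the spread between arrays, its interval covers large differences in either direction, and its sign was not stable (-0.0004 with probe 2). The unadjusted criterion was met by 5.39% of all probes in this comparison, 2.41% as higher and 2.98% as lower, while 0 passed adjustment in limma and 2278 had an unadjusted p under 0.05. With Corrected replicate 3 included the difference was 1.64. Within the scan that held both groups, Corrected replicate 2 exceeded the mean of Control replicates 1, 2 and 4 by 2.52 (SE 2.59, limma adjusted p = 1.00).

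For CoA vs Corrected, the difference in RLN1 was 3.76 (SE 1.76, 95% interval -0.10 to 7.63), or 13.6-fold higher in CoA. Again 3 of the 4 CoA arrays lay above the highest Corrected array. The unadjusted limma p was 0.0551, the limma adjusted p was 1.00, and the exact permutation p was 0.143. Probes 2 and 3 differed by 4.15 and 4.09 and met the unadjusted criterion, while probe 1 did not. The criterion was met by 2.77% of all probes, 1.44% as higher and 1.33% as lower in CoA, and 0 passed adjustment in limma, with 1175 at an unadjusted p under 0.05. In the order of the group means of probe 1, CoA stood above Corrected and Corrected above Control, and neither step between neighbours passed adjustment in limma. With probe 2 Corrected was no higher than Control, with a difference of -0.0004. With all 12 arrays the difference for CoA vs Corrected was 2.63, since the unused Corrected array was high. The comparisons share their groups, so they are not independent of each other.

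**Figure D3:**
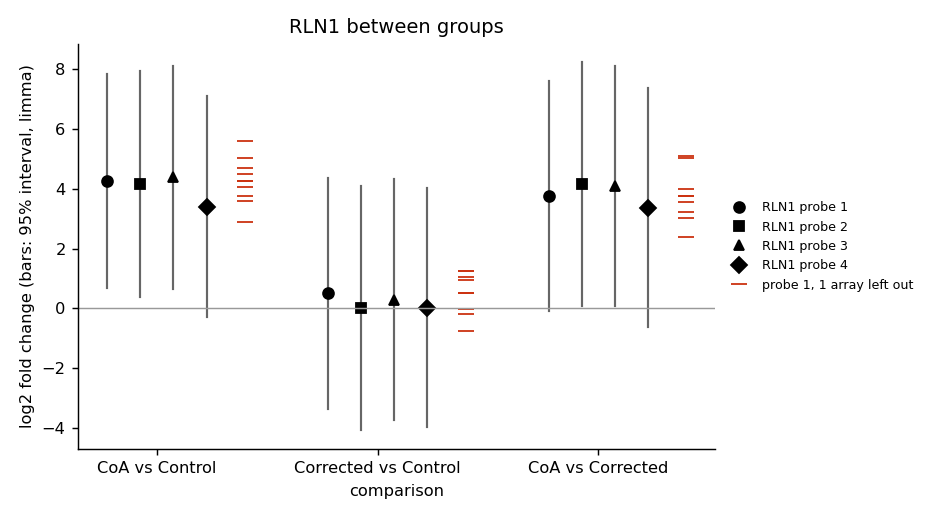
Log2 fold change of RLN1 (y axis) for the 3 comparisons (x axis), with black symbols for the 4 probes, bars for limma's 95% interval and red dashes for probe 1 with 1 array left out in turn. Probe 1 differed by 4.27 for CoA vs Control, by 0.50 for Corrected vs Control and by 3.76 for CoA vs Corrected, and leaving out an array moved these values to 2.89 to 5.62, -0.76 to 1.26 and 2.39 to 5.12.

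Among 952 named genes detected on at least 8 of the 12 arrays, 7 had a Pearson r of at least 0.8 with RLN1 over the 11 arrays and 13 had an r of -0.8 or lower. Over all 27240 probes, 0.778% reached 0.8 and 0.514% reached -0.8, with a median r of 0.06. The points of every such correlation are the same 11 arrays, they share their normalization and their groups, and most of the probes have no symbol. The gene named after the 10 most like was LUM, with an r of 0.75, and the gene after the 5 most opposite was DSG4, with -0.84.

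PGR, the progesterone receptor, was most like RLN1 when each gene was represented by its probe of highest mean signal. Its r was 0.891 (Spearman's rho 0.900). Its log2 signal was 4.96, 5.12, 4.56 and 3.95 in Control replicates 1 to 4. It was 6.71, 6.37, 5.18 and 5.39 in CoA replicates 1 to 4, and 4.10, 5.07 and 4.13 in Corrected replicates 1, 2 and 4. The array with the highest RLN1 was also the highest for PGR, and the array with the lowest RLN1 was the lowest. PGR moved much less than RLN1, by 0.25 on the log2 scale for each log2 unit of RLN1. With the group means subtracted its r was 0.834, and without CoA replicates 1 and 4, the arrays farthest from the RLN1 median, it was 0.850. The other PGR probes, each detected on 9 arrays, gave an r of 0.76 and 0.57. Dimmer probes of CXADR (detected on 7 arrays) and SLC4A4 (detected on 12) had a higher r than PGR, 0.93 and 0.90.

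SLC26A3, which encodes a chloride and bicarbonate exchanger of the gut, came next with an r of 0.865 (Spearman's rho 0.900). Its log2 signal was 4.08, 6.98, 2.10 and 1.71 in Control replicates 1 to 4. It was 9.33, 5.18, 4.03 and 9.18 in CoA replicates 1 to 4, and 2.16, 8.53 and 5.87 in Corrected replicates 1, 2 and 4. High and low arrays occurred in all 3 groups, and the r with group means subtracted was 0.866. SLC26A3 was detected on 8 of the 12 arrays, so its lowest values are at the background.

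The other 8 most like genes had an r between 0.771 and 0.827. C18H19orf33 had an r of 0.827 that fell to 0.61 without CoA replicate 1, where its log2 signal was 10.37 against at most 6.85 on the other arrays used. CXADR, the coxsackievirus and adenovirus receptor of cell junctions, had an r of 0.824, and its other probes gave 0.93, 0.89 and 0.82. PLA2R1, a receptor for secreted phospholipase A2, had an r of 0.806, and its other probes gave 0.80 and 0.44. The urea transporter gene SLC14A2 followed with 0.804, although 5 of its 7 probes were detected on no array, and the fatty acid hydroxylase gene CYP4A5 with 0.802, which fell to 0.58 without CoA replicate 1 and was 0.24 for its other probe. The r of CYP4A5 was 0.93 without CoA replicate 4 and 0.83 without CoA replicates 1 and 4 together. The homeobox gene HOXA2 had an r of 0.788, the sodium bicarbonate cotransporter gene SLC4A4 0.771 and the cytokine gene IL1A 0.771. The other probes of SLC4A4 gave 0.90, 0.65, 0.54 and 0.46, and those of IL1A 0.64, 0.77 and 0.74. With the group means subtracted, r fell to 0.67 for PLA2R1, 0.68 for HOXA2 and 0.65 for SLC4A4. For the others of these 8 it lay between 0.72 and 0.86. The likeness of PLA2R1, HOXA2 and SLC4A4 to RLN1 thus included part of the difference between groups. PGR and SLC26A3 were the only genes of the 10 that stayed among the 10 most like in each of the 11 analyses that left out 1 array, while SLC4A4 and IL1A stayed in 5 of 11.

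The genes most opposite to RLN1 were led by ADIPOQ, the gene for the fat cell hormone adiponectin, with an r of -0.900 (Spearman's rho -0.891). Its log2 signal was 6.01, 4.94, 7.44 and 7.64 in Control replicates 1 to 4. It was 1.45, 3.35, 5.89 and 3.36 in CoA replicates 1 to 4, and 7.27, 4.72 and 4.06 in Corrected replicates 1, 2 and 4. The CoA array with low RLN1, replicate 3, had the highest ADIPOQ of its group, and the Control arrays with high RLN1, replicates 1 and 2, had the lowest of theirs. Corrected went otherwise, since ADIPOQ was lowest in replicate 4, where RLN1 was low, and not in replicate 2, where RLN1 was highest. ADIPOQ was detected on 8 of 12 arrays and was not well above background on CoA replicates 1 and 4 and Corrected replicate 4 of the arrays used.

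TIMP4, a metalloproteinase inhibitor, had an r of -0.883 with RLN1 (Spearman's rho -0.945). Its log2 signal was 9.66, 7.99, 11.31 and 11.38 in Control replicates 1 to 4. It was 5.60, 6.57, 8.58 and 7.54 in CoA replicates 1 to 4, and 10.87, 8.13 and 8.24 in Corrected replicates 1, 2 and 4. For both TIMP4 and ADIPOQ, the order of the Control arrays was the reverse of that of RLN1, and within CoA replicate 1 was lowest and replicate 3 highest. THRSP, which is known to promote fat synthesis, and PTGER3, a receptor for prostaglandin E2, each had an r of -0.872. HBA, an alpha globin gene, had an r of -0.860, with a log2 signal from 11.41 in CoA replicate 1 to 17.85 in Control replicates 3 and 4. Without CoA replicate 1 the r of PTGER3 was -0.72 and that of HBA -0.70. That of THRSP, ADIPOQ and TIMP4 was then -0.79, -0.83 and -0.84. Without CoA replicates 1 and 4 the r of PTGER3 was -0.60. PTGER3 varied little in Control, from 11.63 in replicate 2 to 12.01 in replicate 4. Only ADIPOQ and TIMP4 of these 5 stayed among the 5 most opposite in each of the 11 analyses that left out 1 array. Their lead did not hold with normexp background correction of the median spot intensities. There ADIPOQ had an r of -0.75 and TIMP4 of -0.80, against -0.89 for PTGER3, -0.87 for HBA and -0.83 for THRSP.

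**Figure D4:**
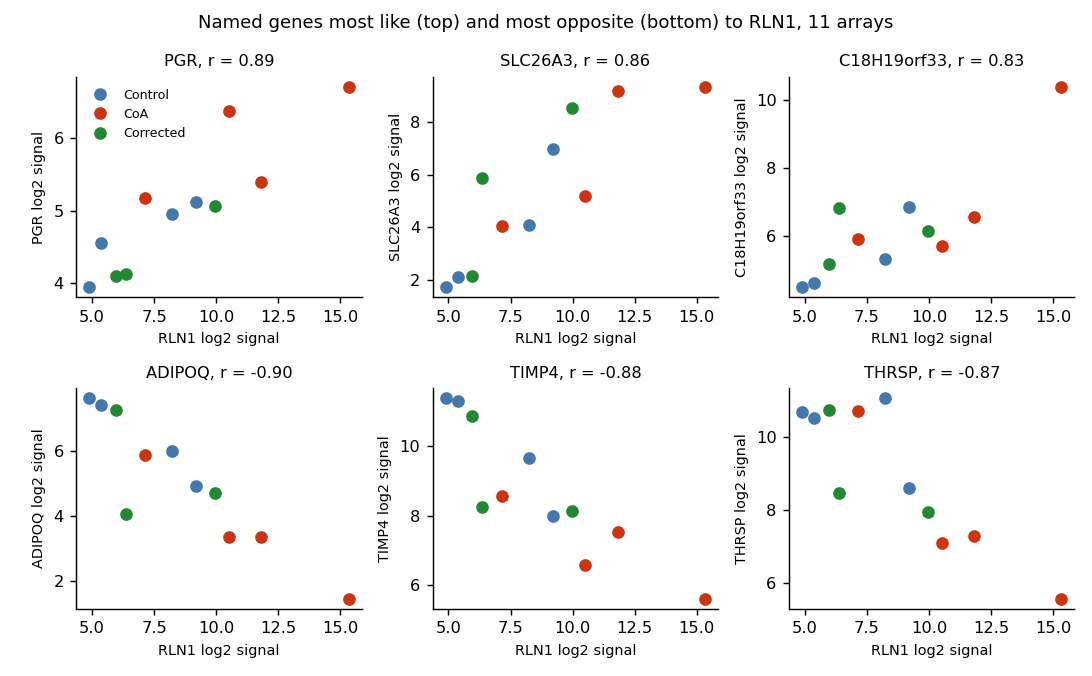
Log2 signal of RLN1 (x axes) against the 3 named genes most like it (top row) and the 3 most opposite to it (bottom row), each point an array used (n = 11), coloured by group. PGR and SLC26A3 tend to rise with RLN1, with an r of 0.891 and 0.865, but not evenly. SLC26A3 is lower in CoA replicate 2 (5.18) than in Corrected replicate 2 (8.53), where RLN1 is lower. PGR is lower in CoA replicate 4 (5.39) than in CoA replicate 2 (6.37), where RLN1 is lower. For C18H19orf33 CoA replicate 1 lies far above the other arrays at 10.37.

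**Figure D5:**
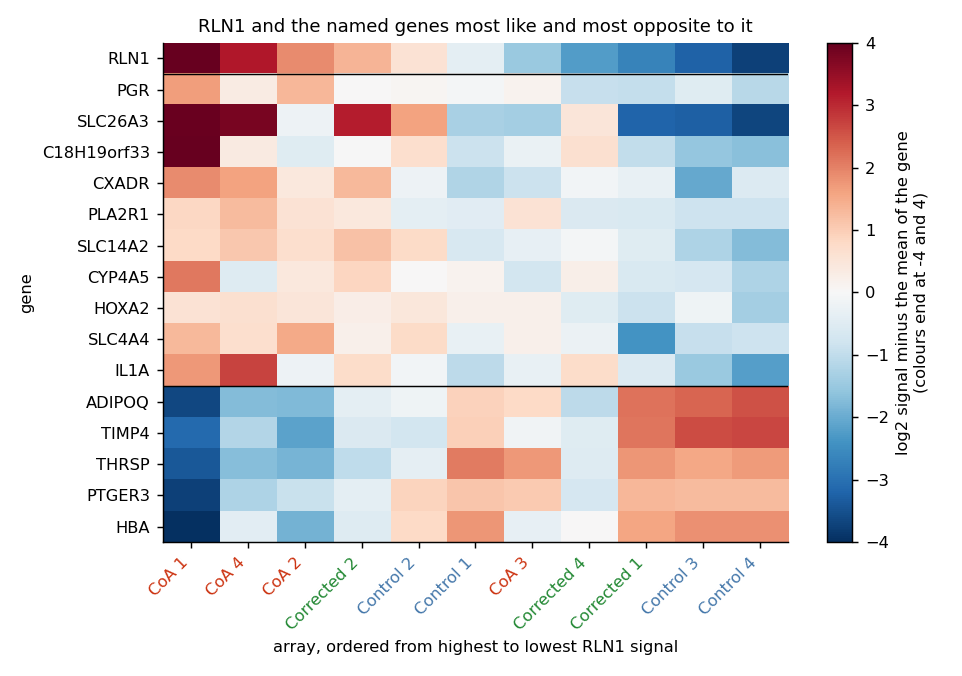
Log2 signal minus the mean of each gene (colour, ending at -4 and 4) for RLN1, the 10 named genes most like it and the 5 most opposite (rows), on the 11 arrays ordered from highest to lowest RLN1 (columns, labels coloured by group). CoA replicates 1, 4 and 2 and Corrected replicate 2 stand at the high end of RLN1, and Corrected replicate 1 and Control replicates 3 and 4 at the low end.

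None of these 15 genes passed adjustment in any comparison. For CoA vs Control, PLA2R1 was higher by 1.45 (SE 0.30, limma adjusted p = 0.217), and HBA differed by -3.37 (SE 0.85, limma adjusted p = 0.227). The difference for TIMP4 was -3.01 (limma adjusted p = 0.258), for IL1A 2.20 (limma adjusted p = 0.269), for ADIPOQ -2.99 (limma adjusted p = 0.274) and for PGR 1.26 (limma adjusted p = 0.275).

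Of the relaxin family, little besides RLN1 could be measured. Among the 6 other ligand genes listed, RLN2, RLN3, INSL3, INSL4, INSL5 and INSL6, only RLN3 and INSL5 had a named probe, and none of the 4 receptor genes RXFP1, RXFP2, RXFP3 and RXFP4 had one. RLN3, a relaxin mainly of the brain, had a log2 signal between 2.96 and 4.49 on the 11 arrays used and was detected on 8 of 12 arrays. Its difference for CoA vs Control was -0.31 (SE 0.36, limma adjusted p = 0.717), and its r with RLN1 was -0.25. INSL5, a hormone of the colon, was detected on 3 of 12 arrays, with a log2 signal from 1.43 to 5.88 on the arrays used. RLN3 thus stayed within a narrow band near the background while RLN1 ran from 4.89 to 15.33.

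Genes through which relaxin is known to signal were described from a list of 41, of which 14 had a named probe and 11 passed the detection filter. At over 2-fold with an unadjusted p under 0.05, 3 of the 11 were called in CoA vs Control, 1 higher and 2 lower, against 8.81% of all probes. JUN, a transcription factor of the early response, was higher by 1.39 (limma adjusted p = 0.322), the adenylyl cyclase gene ADCY5 differed by -1.38 (limma adjusted p = 0.269), and PPARG, a nuclear receptor best known in fat cells, by -3.17 (limma adjusted p = 0.243). In Corrected vs Control 2 of the 11 were called higher and 1 lower, against 5.39% of all probes. FOS, which pairs with JUN in a transcription factor, was higher by 2.08 (limma adjusted p = 0.531), the endothelin receptor gene EDNRA by 1.02 (limma adjusted p = 0.570), and PPARG differed by -2.29 (limma adjusted p = 0.572). With normexp background correction, ADCY5 (-0.43) and JUN (0.57) in CoA vs Control and EDNRA (0.78) in Corrected vs Control no longer met the criterion. In CoA vs Corrected the count was 0 of 11, and 0 of the 11 passed adjustment in any comparison in limma. The median difference of the 11 genes was 0.15, 0.15 and -0.29 in the 3 comparisons, against 0.06, 0.03 and 0.02 over all probes. Their r with RLN1 ran from -0.71 for ADCY5 to 0.64 for PRKG1, a cyclic GMP dependent kinase, with a median of 0.12. NOS3, the nitric oxide synthase of endothelium, and EDN1, the gene for endothelin, had an r of -0.12 and 0.30.

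Matrix genes on which relaxin is known to act, or which belong to the same matrix turnover, formed a list of 20. Of the 20 listed, 12 had a named probe and 9 were tested, and in both CoA vs Control and Corrected vs Control 1 met the unadjusted criterion as higher and 1 as lower, against 8.81% and 5.39% of all probes. TIMP1, an inhibitor of metalloproteinases, was higher by 1.12 in CoA vs Control (limma adjusted p = 0.287) and by 1.05 in Corrected vs Control (limma adjusted p = 0.565). The collagenase gene MMP1 differed by -1.15 (limma adjusted p = 0.299) and -1.36 (limma adjusted p = 0.485), and with normexp background correction by -0.78 and -0.83, which missed the criterion. In CoA vs Corrected none of the 9 met the criterion, and 0 passed adjustment in any comparison in limma. The median difference of the 9 genes was -0.05, 0.19 and -0.01, against 0.06, 0.03 and 0.02 over all probes. The collagen gene COL1A2 differed by -0.03 between CoA and Control and had an r of 0.37 with RLN1, and over the 9 genes r ran from -0.53 to 0.47 with a median of -0.01.

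Markers of fat cells ran against RLN1 across the arrays. Of 11 listed, 5 had a named probe and 4 were tested, and all 4 had a negative r with RLN1, namely ADIPOQ with -0.90, PPARG with -0.69, LPL with -0.65 and LEP with -0.13. The log2 of the summed signal of the 5 lay between 12.22 and 13.84 in Control and between 10.95 and 13.17 in Corrected. In CoA it went down to 8.97, and its r with RLN1 was -0.71. Every CoA sum lay below the lowest Control sum, where 10.2% of all probes had groups that did not overlap in this comparison. The brightest members weigh most in such a sum. PPARG and UCP1 also separated CoA from Control, while LPL, ADIPOQ and LEP overlapped. The gap for PPARG was small, with 9.15 in CoA replicate 3 against 9.19 in Control replicate 2. UCP1 was detected on 7 of 12 arrays, did not pass the filter and was not well above background on CoA replicates 1, 3 and 4. LPL was 11.75 in CoA replicate 3 against 11.59 in Control replicate 3, and LEP differed by 0.17 for CoA vs Control. No listed fat cell marker with a probe was below detection on every array of a group. In tissue of mixed cells, fewer cells of a type and less RNA per cell cannot be told apart. The part of fat tissue in the RLN1 values was not tested.

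Among the other marker lists the summed signals varied with RLN1, while single members went in both directions. Of 8 erythroid genes, 2 had a named probe and 1 was tested, HBB2 with an r of -0.73. ALOX15, detected on 4 of 12 arrays and on no Corrected array used, had 0.80. The summed log2 signal of the list lay between 17.62 and 17.86 in Control, 14.87 and 17.55 in CoA, and 17.49 and 17.64 in Corrected. This sum had an r of -0.73, as HBB2 had. HBA, with an r of -0.86, was left out, since the list names alpha globin as HBA1 and HBA2. Of 12 macrophage genes, 6 had a named probe and 4 were tested. The sum of the 6 had an r of 0.70 and lay between 10.80 and 12.70 in Control, 12.68 and 14.42 in CoA, and 12.48 and 13.18 in Corrected, and SPP1, the gene for osteopontin, had the highest r with 0.72. The r of MSR1 was 0.39, that of CD14, MMP12, APOE and CD86 was -0.11, -0.18, -0.39 and -0.49, the median of the 4 tested genes was 0.14, and APOE was detected on no CoA array. Of the nerve list, NPY, the gene for neuropeptide Y, had an r of 0.47. Of 11 endothelial genes listed, 6 had a named probe and 5 were tested, and the sum of the 6 had an r of -0.63, between 12.99 and 14.01 in Control, 12.64 and 14.04 in CoA, and 13.69 and 13.83 in Corrected, where KDR was detected on no array used. Of its members VCAM1 had an r of -0.61, NOS3, ACE and THBD had -0.12, -0.10 and -0.01, SELE had 0.30, and the median of the 5 tested genes was -0.10. The part of these cells in the RLN1 values was not tested.

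Epithelial genes of the squamous and airway list had a weakly negative r with RLN1. Of 29 listed, 6 had a named probe and 4 were tested, LORICRIN, SFTPA1, SFTPB and SCGB1A1, with an r between -0.35 and -0.02. SFTPC and CFTR were well above background on no array. The summed signal of the lists for smooth muscle, cardiac muscle, fibroblasts and matrix, and skeletal muscle had an r of 0.41, 0.39, 0.35 and 0.32 with RLN1, and that of T cells and thymus and of inflammatory cytokines and acute phase -0.38 and -0.19. Genes of B cells and of cell division had no named probe.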

How the data were processed

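Total RNA of 12 aortic rings was hybridised to 1-colour Agilent rabbit arrays (Cy3). The authors deposited Agilent Feature Extraction output (version 11.0.1.1 per the file headers), whose processed signal is an intensity with background subtracted within each array and no normalization between arrays. Median spot and background intensities and detection flags came from the same deposited files. Quantile normalization in GeneSpring, which the study's methods name, was redone here on log2 processed signals over 12 arrays. Spots flagged as outliers were left out, spots of a probe averaged, and probes positive and well above background on at least 8 of 12 arrays kept (27283). Depth does not apply to arrays, and their number limits the precision. Saturated spots numbered 0.

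Groups came from the labels. One model in limma 3.58.1 (R 4.3.3, statmod 1.5.0) was fitted to 11 arrays, two-sided, with Benjamini-Hochberg adjustment over all probes, beside exact permutations. Symbols came from RefSeq (mOryCun1.1), matched by accession: 3368 probes, 1264 genes. For a gene with several probes the one of highest mean signal was used, and RLN1 probes are numbered in that order. Named genes were the 10 with the highest and the 5 with the lowest Pearson r with RLN1, and members of 18 lists of relaxin genes and cell type markers. The gene, the lists and the tests were chosen with earlier results of these data known. Genes named for their spread or next in rank were chosen after their values were seen. Replicates were taken as separate rabbits from the study's description. The labels do not say so, and it was not tested for Control replicates 3 and 4, which were much alike. The scripts were tested on simulated data. Alternatives covered normalization, background correction (normexp, offset 50), arrays, probes, filters, blocks and leaving out each array. Python 3.11.15, numpy 2.4.6, pandas 2.3.3 and matplotlib 3.10.9 were used for tables and plots. Probe, transcript and protein sequences were not analysed here, and part of the nerve list is not reported here.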

Additional observations from a re-analysis of the deposited data

Results flagged for a closer look

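The array left out of the comparisons, Corrected replicate 3, carried a high RLN1 signal, with 11.97 on the log2 scale against 4.89 to 9.21 in Control. Its processed intensity before normalization, 988, was also above the highest Control value of 775, although its overall signal was the lowest of the arrays.

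Of 80 groups of 4 arrays examined for the genes named by rule, 9 (11.25%) held an array whose gap to its nearest neighbour exceeded Dixon's 95% critical value, where chance gives about 1 in 20. That rate assumes independent arrays, while Control replicates 3 and 4 resembled each other more than any other pair of the arrays used. Most of the flagged groups were Control groups, and whether this likeness raised the share was not tested. None of the flagged groups was of RLN1. Among the genes that ran with or against RLN1, HBA stood low in Control replicate 2 at 16.84, against 17.82 to 17.85 on the other Control arrays. Control replicate 1 stood apart for EDN1 (4.56 against 5.86 to 5.90), for TGFB2 (9.45 against 8.68 to 8.78), for FOS (9.39 against 7.65 to 7.75) and for MMP2 (12.08 against 10.96 to 11.11). JUN was low in Control replicate 3 at 4.09, against 5.61 to 5.88, and TIMP3 was low in Control replicate 2 at 10.34, against 10.99 to 11.11. In CoA, MMP9 was low in replicate 1 at 4.51, against 5.30 to 5.46, and COL1A2 was low in replicate 2 at 16.60, against 16.97 to 17.02.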

How the results depend on the processing

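RLN1 stayed higher in CoA than in Control under all 27 alternatives and higher in CoA than in Corrected under all 27. Adjustment was passed once, for CoA vs Control with all 12 arrays and limma array weights, where the difference was 6.79 with an limma adjusted p of 0.00117 (range over the alternatives 0.00117 to 0.623). That setting called 40.7% of all probes and gave Control replicates 3 and 4 weights of 7.37 and 6.04, against 0.21 to 3.63 for the other arrays used in the comparisons. The unadjusted criterion was met by CoA vs Control under 20 of 26 alternatives and by CoA vs Corrected under 7 of 26.

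Corrected vs Control changed sign with probe 2 (-0.000402), with Control replicates 3 and 4 as 1 sample (-0.094), with scan as a random block (-0.00584) and with a replicate block (-0.43), and the cause was not tested. Leaving out 1 array gave -0.76 to 1.26 for Corrected vs Control, 2.89 to 5.62 for CoA vs Control and 2.39 to 5.12 for CoA vs Corrected, and a pooled SD of 2.23 to 2.86. The replicate block gave 4.27 for CoA vs Control and 4.70 for CoA vs Corrected, and changed no adjusted call. Of 10 pairs of arrays with the same replicate number 2 correlated over 0.1 (range -0.44 to 0.45), and 4 of 11 arrays correlated best with their own number. Whether the numbers pair the arrays was not tested. Under scaling to the 75th percentile the median difference of all probes for CoA vs Control was 0.22 in place of 0.06, and that of RLN1 was 4.26.

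Of the 10 genes most like RLN1, 6 were kept by Spearman's rho, and 5 to 10 when 1 array was left out, 5 without CoA replicate 1 and 5 without Corrected replicate 4. Among the relaxin list genes, the unadjusted call of PPARG in CoA vs Control held under 15 of 15 alternatives, and the others under 9 to 14. Leaving out an array ended the call of JUN (Control 3, 0.97; CoA 2, 1.22; CoA 4, 1.101), of TIMP1 (Control 4, 0.95) and of MMP1 (Control 3, -0.97; CoA 1, -1.01) in CoA vs Control. In Corrected vs Control it ended that of FOS (Corrected 2, 1.81), of MMP1 (Corrected 2, -0.89), of TIMP1 (0.94, 0.88 and 0.58 without Control 3, Control 4 and Corrected 1), of EDNRA (0.51 to 1.09 without Control 1, Control 3, Corrected 1 or Corrected 4) and of PPARG (-2.49 to -1.34 without Control 1, 3 or 4 or Corrected 2 or 4).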
